A study of Mus musculus with 2 samples.

Results

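Macrophages are often placed between an inflammatory and an alternative state by a handful of transcripts, and 10 of these were followed here in tumour macrophages and monocytes: Il1b, Tnf, Nos2, Acod1, Saa3, Il10, Arg1, Mrc1, Chil3 and Spp1. They were taken by symbol from the 55357 features listed in both matrices, and each symbol was found. The cells were chosen by counts of other genes: at least 3 UMIs (unique transcript molecules) of Lyz2, the lysozyme of myeloid cells, at most 3 of the keratins Krt8 and Krt18 together, and at most 4 of the neutrophil genes S100a8 and S100a9 together. This gate held 388 of 10308 filtered RP-6306 cells (3.76%, 95% interval 3.40 to 4.15%) and 378 of 9540 filtered vehicle cells (3.96%, 3.58 to 4.37%). Near its edge, 32 RP-6306 and 30 vehicle cells in the gate carried 3 or 4 Lyz2 UMIs, and 29 RP-6306 and 24 vehicle cells with 2 were just outside.

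Tumours of RM-1, a prostate cancer line of the mouse, were raised subcutaneously in C57BL/6 hosts (genotype given as WT) and taken on day 10 of treatment with RP-6306, an inhibitor of the kinase PKMYT1, or with vehicle. Age, sex and dose are not given in the sources used here, and how many mice each library pools is not clear from them. Each arm was 1 library of dissociated whole tumour, profiled from the 3' ends of transcripts with 10x Genomics chemistry. With 1 library per arm there was no test: animal, library and treatment cannot be told apart, "higher" and "lower" compare the libraries, and all intervals are 95% intervals that cover counting error only.

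The RP-6306 library had 10512 barcodes, 106465655 UMIs and a median of 8932 UMIs per barcode, and the vehicle library had 9686 barcodes, 100815022 UMIs and a median of 9086.5. Gated cells were shallower, with medians of 3989.5 UMIs in RP-6306 and 4370.5 in vehicle. The libraries shared 34 barcodes, of which 2 were gated in RP-6306 and 1 in vehicle. Macrophage markers led in the gate. All 9 used were detected, at a summed 8044 CPM (UMIs of a gene relative to all UMIs of the gated cells) in RP-6306 and 7488 CPM in vehicle. At least 1 of them was carried by 98.7% of RP-6306 and 99.5% of vehicle cells. Most of the sum was C1qa (2546 and 2293 CPM), C1qb (1842 and 1807) and C1qc (2264 and 2052), while Adgre1 was in 20.4% and 24.6% of cells. The 9 monocyte markers summed to 2045 CPM in RP-6306 and 1565 CPM in vehicle, with Plac8 at 858 and 524 CPM. Markers of other cells were lower. The 10 markers of T and NK cells summed to 14.3 CPM in RP-6306 and 9.14 CPM in vehicle, in 4.38% and 3.17% of cells. Cd3e, Cd3d, Nkg7, Ncr1 and Gzmb among them had 0 UMIs in both libraries. Il7r had 12 RP-6306 and 10 vehicle UMIs, Cd4 8 and 5, Cd3g 2 and 1, Trac 3 and 0, and Cd8a 0 and 1. The 10 neutrophil markers summed to 485 CPM in RP-6306 and 520.0 CPM in vehicle, and 36.6% and 37.0% of gated cells carried at least 1 of them. Most of that was Mmp9 (430 and 490 CPM), a protease that macrophages make too, and Cxcr2, Ly6g and Camp were at 0. S100a8 and S100a9 are among the 10 and are capped by the gate, so their low counts are no check of it. The dendritic list summed to 23.5 CPM in RP-6306 and 37.1 CPM in vehicle. The 8 fibroblast markers summed to 143 CPM in RP-6306 and 288 CPM in vehicle, and the 8 tumour keratin markers to 114 and 143 CPM. Most of the 199 RP-6306 and 265 vehicle keratin UMIs were Krt8 (106 and 130) and Krt18 (57 and 72). The gate caps these 2 genes, so the low keratin sum was largely set by the gate. Of the genes not capped, Krt19 had 23 and 36 UMIs and Krt76 12 and 24. At least 1 fibroblast marker was in 31.4% of RP-6306 and 27.5% of vehicle gated cells. At least 1 tumour keratin marker was in 39.9% and 49.2%.

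Il1b encodes the cytokine interleukin-1 beta, Tnf tumour necrosis factor, Nos2 the inducible nitric oxide synthase, Acod1 the enzyme that makes itaconate, and Saa3 an acute-phase serum amyloid; these are typical of macrophages activated by microbial products or interferon. Arg1 encodes arginase, which competes with nitric oxide synthase for arginine, Mrc1 the mannose receptor CD206, Chil3 a chitinase-like protein abundant in mouse monocytes and in macrophages given interleukin-4, Il10 an anti-inflammatory cytokine, and Spp1 osteopontin, a secreted glycoprotein of tumour macrophages that many other cells also make. In tumours the old division into these poles is known to be loose, and single cells can carry genes of both.

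Counting at the 3' end gives each transcript 1 tag whatever its length, so levels could be set side by side without dividing by length. The order of the levels was nearly the same in both libraries and Il1b led it, while the nitric oxide and itaconate genes were close to absent. Il1b stood at 2417 CPM in RP-6306 (4213 UMIs, interval 2345 to 2492 CPM) and 2219 CPM in vehicle (4126 UMIs, 2152 to 2287 CPM). Spp1 followed at 1150.5 and 1287 CPM. Mrc1, Arg1 and Chil3 came next, at 427, 356 and 328 CPM in RP-6306, where the intervals of Arg1 (329 to 385 CPM) and Chil3 (302 to 356 CPM) overlapped. In vehicle Arg1 stood above Mrc1, at 505 against 387 CPM, and Chil3 was at 261 CPM, with no overlap between these 3. Saa3, Tnf and Il10 lay between 27.0 and 45.9 CPM in RP-6306 and between 19.4 and 28.5 CPM in vehicle, and the intervals of neighbours overlapped. Acod1 had 10 RP-6306 and 15 vehicle UMIs and Nos2 had 8 in each library.

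**Figure D1:**
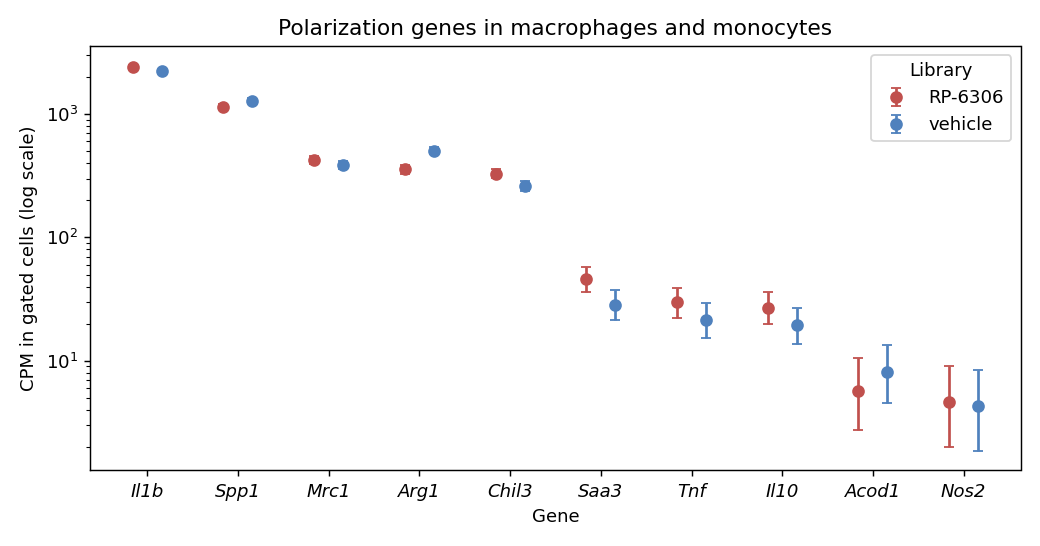
Level of each of the 10 genes in gated macrophages and monocytes, in CPM on a log axis, with RP-6306 (red) left of vehicle (blue), 1 library each; bars are exact Poisson intervals for counting error. Il1b lies highest, at 2417 CPM in RP-6306 and 2219 CPM in vehicle, Arg1 at 356 and 505 CPM, and Acod1 and Nos2 lie lowest with intervals that overlap.

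Promoter sequences are shown for 7 of the 10 genes, since these genes are read as outputs of a few myeloid and inflammatory transcription factors; Arg1, Nos2 and Il10 had no entry in the table. Each line gives the last 120 bases before the RefSeq start site (GRCm38.p6), 5′ to 3′ on the strand of the gene. In capitals are TATAAA (the TATA box), GAGGAAG (an ETS motif of the PU.1 type) and TTGCNNAA (the C/EBP type), on either strand. The windows are Il1b chr2:129371140-129371259 (minus strand), Tnf chr17:35202008-35202127 (minus), Acod1 chr14:103046892-103047011 (plus), Mrc1 chr2:14229294-14229413 (plus), Spp1 chr5:104434991-104435110 (plus, the upstream of its start sites), Chil3 chr3:106167565-106167684 (minus) and Saa3 chr7:46715677-46715796 (minus).
Il1b: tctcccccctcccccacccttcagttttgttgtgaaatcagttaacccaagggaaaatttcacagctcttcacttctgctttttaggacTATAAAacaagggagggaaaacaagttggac
Tnf: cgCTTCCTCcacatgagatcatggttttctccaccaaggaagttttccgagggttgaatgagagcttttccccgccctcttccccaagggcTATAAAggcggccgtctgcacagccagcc
Acod1: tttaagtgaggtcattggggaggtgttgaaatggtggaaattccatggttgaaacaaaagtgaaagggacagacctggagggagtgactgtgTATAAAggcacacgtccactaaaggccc
Mrc1: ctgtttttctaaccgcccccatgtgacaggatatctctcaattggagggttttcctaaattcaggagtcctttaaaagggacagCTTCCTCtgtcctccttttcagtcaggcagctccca
Spp1: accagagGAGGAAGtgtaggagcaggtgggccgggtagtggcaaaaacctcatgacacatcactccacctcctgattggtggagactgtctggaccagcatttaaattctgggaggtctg
Chil3: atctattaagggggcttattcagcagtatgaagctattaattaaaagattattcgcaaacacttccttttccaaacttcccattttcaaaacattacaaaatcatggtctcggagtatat
Saa3: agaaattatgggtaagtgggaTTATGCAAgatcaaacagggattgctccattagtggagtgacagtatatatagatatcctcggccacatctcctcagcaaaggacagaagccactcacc
The TATAAA of Il1b, Tnf and Acod1 began 31, 29 and 28 bases before the start. Within 250 bases before the start, TATAAA was present in 12.4% of 32851 RefSeq promoters, GAGGAAG in 10.6% and TTGCNNAA in 9.56%. GAGGAAG or its complement lay 36 bases before the start of Mrc1, 118 before that of Tnf and 113 before that of Spp1, and the TTGCNNAA match of Saa3 began at 99. Of the other motifs searched, TTCNNNGAA (the STAT type, in 7.02% of promoters) was found 172 bases before Chil3, and the core of the interferon-stimulated response element (2.98%) in the 250 bases of Spp1 and Saa3. TGANTCA (AP-1, 6.75%), TGACGTCA (CRE, 1.55%) and the NF-kB motif (7.25%) had no match in the 250 bases before these 7 starts. A match is a run of letters, not a measured binding site.

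Between the libraries the set as a whole moved little, and in both directions. No member differed by 2-fold, where 0.892% of the 9419 features with at least 20 UMIs in gated cells were at least 2-fold higher and 0.977% at least 2-fold lower in RP-6306. At a log2 ratio of 0.5, a bound added after the data were seen, Saa3 was higher and Arg1 lower, against 7.27% of all features higher and 8.15% lower. Neither passed that bound under every setting: Arg1 was at -0.48 with edgeR's TMM factors, and Saa3 at 0.26 without its top cell. Of the 9 members that reached 20 UMIs, 6 were higher and 3 lower in RP-6306. Of all 9419 features, 4444 were higher and 4975 lower. Among the higher members, Mrc1, Tnf and Il10 had ratio intervals that included 1. So had Acod1 among the lower, which changed sign in 2 of 11 other settings. The median log2 ratio was 0.14 for the members and -0.02 over all features. Nos2, with 16 UMIs over both libraries, did not reach the minimum.

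Arg1 had the largest difference among the abundant members and was lower in RP-6306. It had 621 UMIs in RP-6306 and 939 in vehicle, that is 356 CPM (329 to 385) and 505 CPM (473 to 538), a ratio of 0.706 (0.637 to 0.782) and a log2 ratio of -0.50. Fewer cells carried it: 91 of 388 RP-6306 cells (23.5%) and 133 of 378 vehicle cells (35.2%). With every cell thinned to 1000 UMIs, which left out 1 RP-6306 and 4 vehicle cells, the shares were 12.9% of 387 and 22.2% of 374, a difference of -9.27 percentage points (-14.83 to -3.70). The transcript was concentrated in few cells in both libraries. Cells with at least 10 Arg1 UMIs numbered 20 in RP-6306 and 31 in vehicle and held 68.1% and 65.1% of the Arg1 UMIs, and the single highest cell had 45 and 52. In T and NK cells, which had median depths of 1297 UMIs in RP-6306 and 1464 in vehicle, Arg1 had 1 UMI in 49 RP-6306 cells and 0 in 33 vehicle cells, where 0 of 33 allows a share of cells with an Arg1 UMI of up to 9.09% at that depth, which does not bound the share of cells that express it. Thinned to 500 UMIs, the difference in Arg1 detection was -2.92 points.

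Il1b and Mrc1 differed little. Il1b was carried by 84.0% of RP-6306 and 84.1% of vehicle cells, 176 and 179 cells held at least 10 UMIs of it, and the ratio of levels was 1.09 (1.04 to 1.14). Mrc1 had 744 RP-6306 and 719 vehicle UMIs (427 and 387 CPM), with a ratio of 1.10 whose interval reached 1 (0.995 to 1.22), and was found in 42.5% and 44.4% of cells. Thinned, Mrc1 was in 20.4% of RP-6306 and 21.4% of vehicle cells. Chil3 was higher in RP-6306, at 328 CPM (572 UMIs) against 261 CPM (486 UMIs), a ratio of 1.26 (1.11 to 1.42), while the shares of cells were near each other, at 33.2% and 32.0%. T and NK cells had 1 Il1b UMI in RP-6306, and otherwise 0 of these 3 genes in both libraries.

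Spp1 was carried by 61.6% of RP-6306 and 67.2% of vehicle cells and had a ratio of 0.894 (0.842 to 0.949), and a few cells weighed on this value. The highest vehicle cell held 277 of 2394 Spp1 UMIs and the highest RP-6306 cell 112 of 2005, and without these cells the log2 ratio was -0.06, against -0.16 with them. Single Spp1 UMIs were widespread. After thinning, 35.1% of RP-6306 and 36.4% of vehicle gated cells had one, against 28.2% of RP-6306 and 19.2% of vehicle T and NK cells, a class not known as its main source. Without thinning, 12.9% of RP-6306 and 13.8% of vehicle gated cells had at least 10 Spp1 UMIs. So did 67.6% and 66.2% of the deeper keratin-high tumour cells, and 1 of 49 RP-6306 and 0 of 33 vehicle T and NK cells, which were shallower, so the differences in depth stand beside these shares.

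The remaining inflammatory genes and Il10 were rare, so counts limit what can be said. Tnf had 52 UMIs in 33 RP-6306 cells and 40 UMIs in 30 vehicle cells, a ratio of 1.39 (0.901 to 2.15), and 1 RP-6306 cell held 11 of them. Il10 had 47 UMIs in 18 RP-6306 cells and 36 UMIs in 19 vehicle cells, also a ratio of 1.39 (0.883 to 2.21). Acod1 was in 7 RP-6306 and 6 vehicle cells, a ratio of 0.711 (0.286 to 1.69). For these and for Nos2 (ratio 1.07, 0.349 to 3.26) a difference was not detectable at this depth. Saa3 had 80 RP-6306 and 53 vehicle UMIs, a ratio of 1.61 (1.12 to 2.32), but only 12 and 10 cells carried it, and 1 RP-6306 cell held 46 UMIs while the top vehicle cell held 23. Its log2 ratio of 0.67 became 2.14 without the dendritic and patrolling-monocyte ranges described next, since 35 of the vehicle UMIs lay there.

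**Figure D2:**
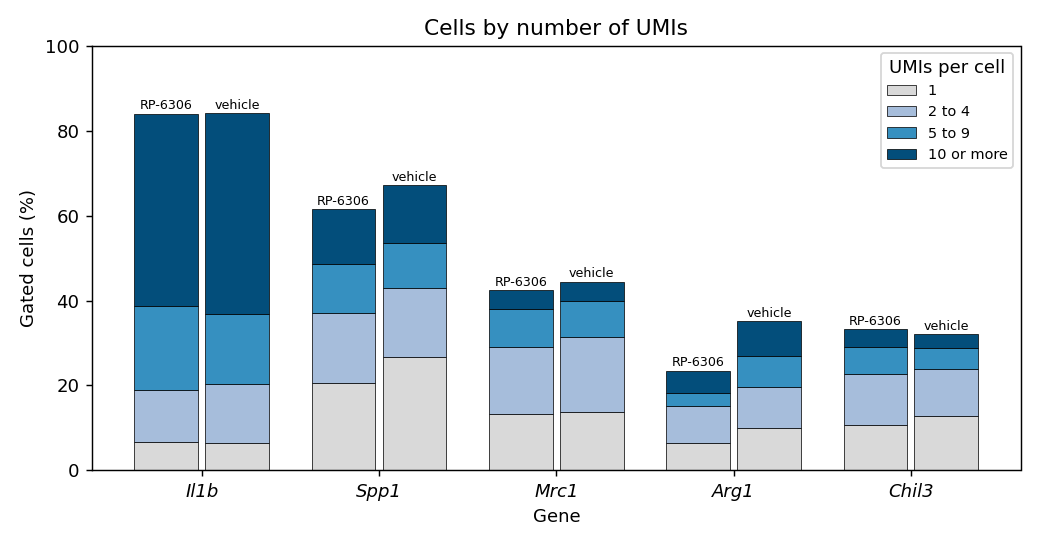
Share of gated cells (y axis, %) with 1, 2 to 4, 5 to 9, or 10 or more UMIs of the 5 abundant genes (x axis), the RP-6306 bar left of the vehicle bar, without thinning. The Arg1 bars reach 23.5% in RP-6306 and 35.2% in vehicle, while the Il1b bars reach 84.0% and 84.1%.

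The members fell into patterns inside the gate that were shared by both libraries. Cells were cut by counts of marker genes into ranges, which are not cell types: 221 RP-6306 and 218 vehicle cells with at least 5 UMIs of the complement genes C1qa, C1qb and C1qc, a feature of resident and differentiated macrophages; 102 and 78 cells with at least 2 UMIs of the monocyte genes Ly6c2 or Plac8; 25 and 26 cells with at least 2 UMIs of Ace, Treml4 or Adgre4, genes of patrolling monocytes; and 40 and 55 cells in none of these. The dendritic cut was met by 0 RP-6306 cells and 1 vehicle cell. Mrc1 belonged to the C1q-high range, at 601 CPM in RP-6306 and 536 CPM in vehicle, against 25.4 CPM (8 UMIs) and 3.84 CPM (1 UMI) in the Ly6c2 or Plac8 range. Chil3 ran the other way, with 1206 CPM in RP-6306 and 1025 CPM in vehicle in the Ly6c2 or Plac8 range, against 63.5 and 41.7 CPM in the C1q-high range. Il1b was high in every range, between 2194 and 3350.4 CPM in RP-6306 and between 1700 and 3847 CPM in vehicle.

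Arg1 was lower in RP-6306 in the C1q-high range, at 386 CPM (351 to 424) against 598 CPM (556 to 642) in vehicle, a ratio of 0.646 (0.574 to 0.727). After thinning, 15.5% of RP-6306 C1q-high cells (10.9 to 20.9%) and 29.5% of vehicle ones (23.5 to 36.0%) carried it. By level, Arg1 was highest in the cells of no range, at 948 CPM in RP-6306 and 772 CPM in vehicle, a ratio of 1.23 (0.959 to 1.57). There 1 RP-6306 cell held 43 of 127 Arg1 UMIs and 1 vehicle cell 52 of 141. After thinning, 27.5% of RP-6306 cells of no range (14.6 to 43.9%) and 21.2% of vehicle ones (11.1 to 34.7%) carried Arg1. It was low in the Ly6c2 or Plac8 range, at 114 and 99.8 CPM, with a ratio of 1.14 (0.672 to 1.97), and at a C1q bound of 10 its log2 ratio there was -0.50, against 0.19 at the bound of 5. The C1q-high range held 57.0% of RP-6306 and 57.7% of vehicle cells, and the Ly6c2 or Plac8 range 26.3% and 20.6%.

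Il1b and Spp1 had ratios on opposite sides of 1 in the C1q-high and the Ly6c2 or Plac8 ranges. Il1b was higher in RP-6306 in the C1q-high range, at 2194 against 1700 CPM (ratio 1.29, 1.22 to 1.37), and lower in the Ly6c2 or Plac8 range, at 2837 against 3847 CPM (0.737, 0.673 to 0.808). Spp1 was lower in RP-6306 in the C1q-high range, at 1118 against 1439 CPM (0.777, 0.723 to 0.835), and higher in the Ly6c2 or Plac8 range, at 946 against 484 CPM (1.95, 1.58 to 2.43), where 1 RP-6306 cell held 112 of its UMIs. In the Ace, Treml4 or Adgre4 range both genes were lower in RP-6306, with ratios of 0.720 for Il1b and 0.564 for Spp1, and in the cells of no range both were higher, with 1.23 and 1.41. Plac8 itself, which helps to define that range, was at 858 CPM in RP-6306 and 524 CPM in vehicle over the whole gate, and its part in these values was not tested.

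**Figure D3:**
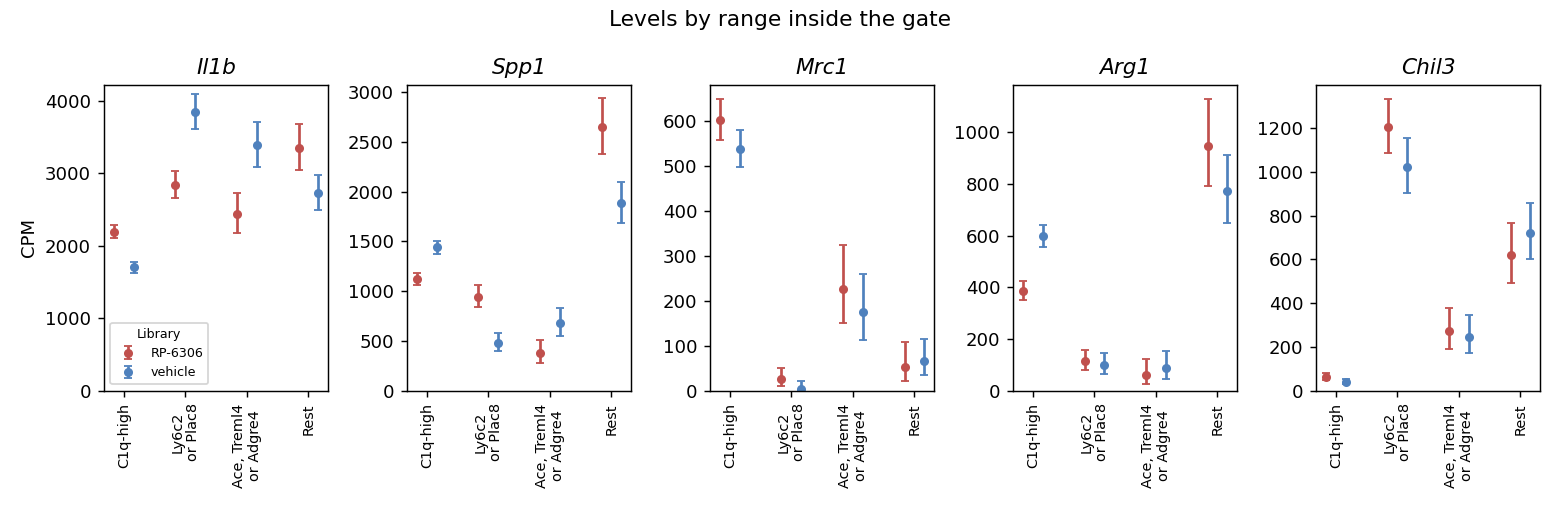
Level of the 5 abundant genes (CPM, linear axes that start at 0) in each range of the gate, RP-6306 (red) left of vehicle (blue), with exact Poisson intervals; 1 library each. Mrc1 is highest in the C1q-high range and Chil3 in the Ly6c2 or Plac8 range in both libraries, and Arg1 in the C1q-high range is at 386 CPM in RP-6306 and 598 CPM in vehicle.

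Mutual exclusion was looked for in all 45 pairs of members, as the number of cells with both transcripts over the number that the product of the shares gives. Cells were thinned to 1000 UMIs so that deep cells did not make every pair look joined, and a pair was read only where that product was at least 5 cells in both libraries, which left 10 pairs. None of these 10 pairs excluded each other entirely. Mrc1 and Chil3 came closest, with 4 cells against 16.5 in RP-6306 and 5 against 14.3 in vehicle, ratios of 0.242 and 0.349. Of RP-6306 cells with Mrc1, 5.06% (1.40 to 12.5%) had Chil3, and of those without it 25% (20.3 to 30.2%) did; in vehicle the shares were 6.25% (2.06 to 14.0%) and 21.1% (16.6 to 26.2%). Arg1 and Chil3, both listed as alternative genes, also met less often, with ratios of 0.573 in RP-6306 and 0.538 in vehicle. Mrc1 and Il1b had ratios of 0.752 and 0.764, but in vehicle cells thinned to 500 UMIs that ratio was 1.05.

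Arg1 and Spp1 went together. Both transcripts were in 31 RP-6306 cells, against 17.6 from the shares, and in 49 vehicle cells, against 30.2, ratios of 1.76 and 1.62. Without thinning, Spp1 stood at 2217 CPM in RP-6306 cells with Arg1, against 741 CPM in those without, and at 2393 against 594 CPM in vehicle. Arg1 and Mrc1 had ratios of 1.37 in RP-6306 and 1.35 in vehicle, and Mrc1 and Spp1 of 1.19 and 1.17. Il1b met Arg1, Chil3 and Spp1 about as often as the shares give, with ratios between 0.976 and 1.08 in RP-6306 and between 0.931 and 1.02 in vehicle. In all, 5 pairs met less often in both libraries, 4 more often, and 1 differed between them (Arg1 and Il1b); these are directions of a ratio, with no test.

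**Figure D4:**
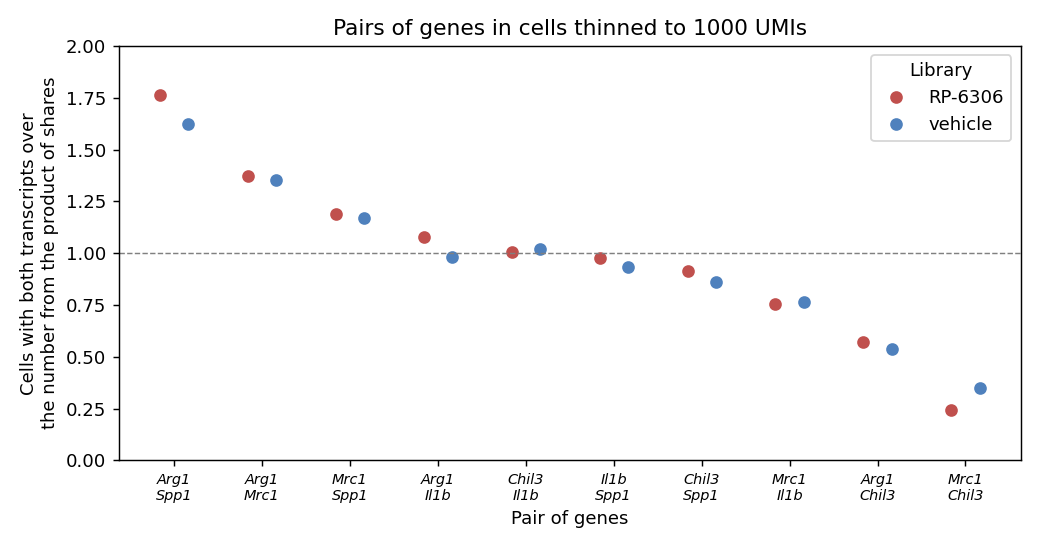
Number of thinned gated cells with both transcripts over the number from the product of the 2 shares (y axis, dashed line at 1), for the 10 pairs with a product of at least 5 cells in both libraries (x axis), RP-6306 (red) left of vehicle (blue). Arg1 with Spp1 lies highest, at 1.76 in RP-6306 and 1.62 in vehicle, and Mrc1 with Chil3 lowest, at 0.242 and 0.349.

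Nos2 and Arg1, the enzymes that define the textbook poles, could not be read as a pair because so few cells carried Nos2, so each Nos2 cell is given. In RP-6306 3 cells carried Nos2, with 4, 3 and 1 UMIs, and the same cells had 26, 43 and 16 Arg1 UMIs. In vehicle 6 cells carried it, 1 with 3 UMIs and 5 with 1 each, and 4 of them had Arg1, between 17 and 52 UMIs. The product of the shares gives 0.704 cells in RP-6306 and 2.11 in vehicle. Every Nos2 cell also carried Il1b, between 15 and 20 UMIs in RP-6306 and between 6 and 18 in vehicle. Il1b was in most gated cells, and the product of the shares already gives 2.52 of the 3 RP-6306 and 5.05 of the 6 vehicle cells. Nos2 cells were also deeper, with medians of 5949 UMIs against 3954 without Nos2 in RP-6306, and 5423.5 against 4366.5 in vehicle. Without thinning, Il10 was in 15 RP-6306 and 16 vehicle cells with Mrc1, where the shares give 7.65 and 8.44. It was in 2 RP-6306 and 0 vehicle cells with Chil3, where they give 5.98 and 6.08. Depth differed between these cells too. Median UMIs were 5769 with Mrc1 and 3052 without it in RP-6306, and 6073 and 3312.5 in vehicle. With and without Chil3 they were 2919 and 4631 in RP-6306, and 3494 and 5029 in vehicle. After thinning, both pairs had a product of shares below 5 cells in each library. These 2 pairs were therefore not read, and the part of depth in their unthinned counts was not tested.

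Most cells carried more than 1 member, though the number was lower after thinning. Without thinning, 6 cells in each library carried none of the 10, 125 RP-6306 cells carried 3, their commonest number, and 116 vehicle cells carried 2. The highest number was 6 members, in 1 RP-6306 and 5 vehicle cells. After thinning the commonest number was 1 member, in 144 RP-6306 cells (37.2%) and 137 vehicle cells (36.6%). A further 8.01% of RP-6306 and 8.02% of vehicle cells then carried none.

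Across gated cells, the genes most like each member are given by Pearson's r of log values over 388 RP-6306 and 378 vehicle cells, among 4315 genes with at least 50 UMIs in each library. The cells of a library share its depth and free RNA, so these are descriptions. Mrc1 went with C1qc (r 0.63 in RP-6306 and 0.61 in vehicle), C1qa (0.61 and 0.62) and Pf4, a chemokine (0.67 and 0.61). Chil3 went with the monocyte genes Plac8 (0.52 and 0.45) and Vcan (0.52 and 0.42) and with S100a4 (0.50 and 0.41). Il1b went with the immediate-early genes Junb (0.47 and 0.47) and Fos (0.42 and 0.42) and with Btg2 (0.44 and 0.45). For Arg1 the nearest was Hilpda (0.39 and 0.43), a lipid droplet gene induced by low oxygen, followed by Spp1 (0.39 and 0.40) and AA467197 (0.39 and 0.39). Hilpda stood at 286 CPM in RP-6306 and 204 CPM in vehicle, a log2 ratio of 0.48, where that of Arg1 was -0.50. Besides Arg1, Spp1 was nearest to Ctsl (0.35 and 0.29) and Sdc4 (0.23 and 0.24). Saa3 reached at most 0.28 in RP-6306 and 0.19 in vehicle with its nearest genes, too weak to read in counts this sparse.

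Outside the gate the members differed in which cells carried them. Il1b was high in neutrophils and low in tumour cells: neutrophils, with 19 RP-6306 and 7 vehicle cells, had 1140 and 1136 CPM, and keratin-high tumour cells, with 7527 and 7229, had 5.60 and 4.40 CPM. Chil3 was higher in neutrophils than in gated cells, at 1756 CPM in RP-6306 and 2475 CPM in vehicle. Mrc1 had 0.817 and 0.736 CPM in keratin-high cells and 0 UMIs in T and NK cells of both libraries. Tumour cells also carried Arg1, at levels whose ratio had an interval that included 1: 33.8 CPM in RP-6306 and 34.5 CPM in vehicle, a ratio of 0.981 (0.933 to 1.03), in 27.7% and 28.6% of cells with median depths of 10773 and 10716 UMIs. Il10 had 221 RP-6306 and 152 vehicle UMIs in keratin-high cells, 2.41 and 1.72 CPM (ratio 1.40, 1.13 to 1.73).

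Spp1 was higher in other cells of these tumours than in macrophages and monocytes. Fibroblast-gated cells, 104 in RP-6306 and 105 in vehicle, had 10951 and 15370 CPM, and keratin-high tumour cells 1841 and 1849 CPM. Both were above the gated cells' 1150.5 and 1287 CPM. The shares of fibroblast-gated and keratin-high cells with Spp1 were nearer each other than these levels. After thinning they were 70.2% and 70.9% in RP-6306, and 66.7% and 69.8% in vehicle. The gated level was 0.625 of the keratin-high one in RP-6306 and 0.696 in vehicle. For Krt19 and Krt76, tumour genes on which the gate was not set, that ratio was 0.0781 and 0.0600 in RP-6306 and 0.0841 and 0.0895 in vehicle. In T and NK cells the ratio for Spp1 was 0.234 in RP-6306 and 0.196 in vehicle. Saa3, too, came from few cells: 1 RP-6306 tumour cell held 87 of 151 UMIs in the keratin-high gate, where vehicle had 37 in all, and 1 vehicle cell in the fibroblast gate held 45 UMIs.

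**Figure D5:**
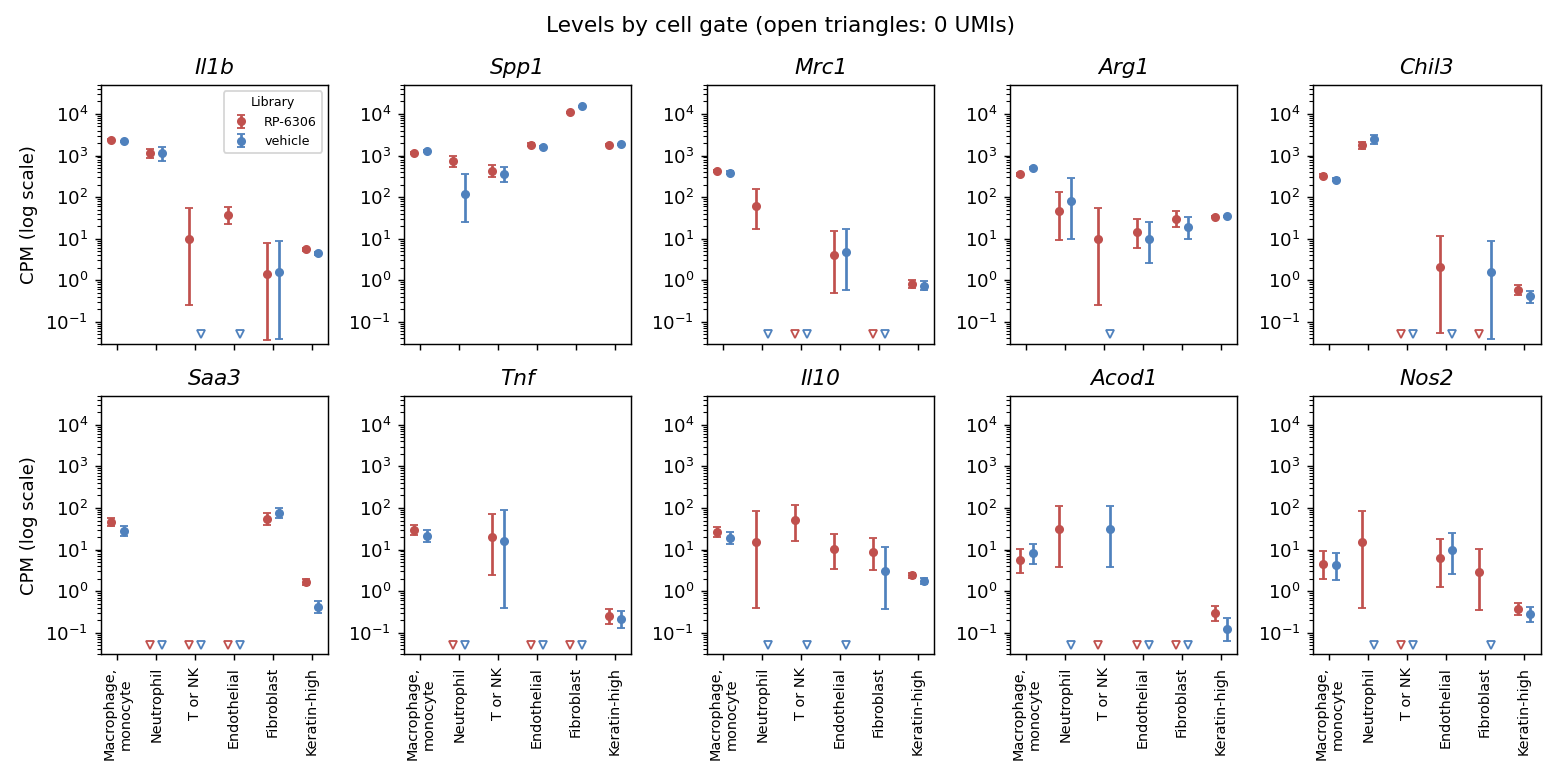
Level of each of the 10 genes (CPM, log axes) in 6 marker-count gates, RP-6306 (red) left of vehicle (blue), 1 library each, with exact Poisson intervals; open triangles mark 0 UMIs. Spp1 is highest in fibroblasts, at 10951 CPM in RP-6306 and 15370 CPM in vehicle, and Chil3 in neutrophils, at 1756 and 2475 CPM.

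Other genes of the same pathways were followed as 6 lists, each described by its genes with at least 20 UMIs over both libraries. Of all 9419 features at that minimum, 4444 were higher and 4975 lower in RP-6306, 0.892% at least 2-fold higher and 0.977% at least 2-fold lower, with a median log2 ratio of -0.02. The 26 inflammatory genes so measured were 17 higher and 9 lower in RP-6306, none by 2-fold, with a median log2 ratio of 0.03. Their most abundant members were the chemokines Cxcl2 (2643 CPM in RP-6306 and 2769 in vehicle), Ccl4 (1787 and 1671) and Ccl2 (1653 and 1408). The most different were Ccl5, a chemokine that draws T cells (37.3 and 55.4 CPM, log2 ratio -0.56, 88 of 103 vehicle UMIs in 1 cell), Cxcl10, induced by interferon (437 and 307 CPM, 0.51), and Fpr2, a formyl peptide receptor (20.7 and 15.1 CPM, 0.43).

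The 23 alternative genes were 8 higher and 15 lower, with a median of -0.17. Against 0.977% of all features, 2 of the 23 were at least 2-fold lower in RP-6306. These were Ccl17, a chemokine typical of dendritic cells, whose 4 RP-6306 UMIs and 20 vehicle UMIs each lay in 1 cell (-1.83), and Irf4, a transcription factor, with 10 and 25 UMIs (-1.10). Dendritic markers were lower in RP-6306 as well (above), and their part was not tested. Clec10a, a lectin, was the most different in the other direction (90.7 and 54.3 CPM, 0.73). Fn1, fibronectin, stood at 989 CPM in RP-6306 and 1421 CPM in vehicle (-0.52), beside the lower fibroblast markers of that library, whose part was not tested either. Ctsl, a protease, was at 846 and 725 CPM and Klf4, a transcription factor, at 665 and 759 CPM.

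Arginine and itaconate metabolism, with 22 genes measured, had 9 higher and 13 lower, none by 2-fold, and a median of -0.03. Oaz1 and Sat1, regulators of polyamines made from arginase products, stood at 1178 and 576 CPM in RP-6306 and 1206 and 523 CPM in vehicle. Nfe2l2, encoding the stress factor NRF2, was at 360 and 373 CPM. The most different were Slc25a1, the mitochondrial citrate carrier (25.8 and 39.8 CPM, -0.60), Keap1, the inhibitor of NRF2 (64.3 and 44.1 CPM, 0.53), and Asl, which makes arginine (20.7 and 28.0 CPM, -0.42).

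The 29 genes of interleukin-1, TNF and interleukin-10 signalling were 15 higher and 14 lower, none by 2-fold, with a median of 0.01. Zfp36, which degrades Tnf mRNA, was at 1286 CPM in RP-6306 and 1497 CPM in vehicle, the inflammasome adaptor Pycard at 516 and 505 CPM, and the cytokine inhibitor Socs3 at 354 and 395 CPM. The most different were Traf2, a TNF receptor adaptor (9.18 and 14.5 CPM, -0.61), Nfkb2 (34.4 and 48.9 CPM, -0.50) and Il1r2, the decoy receptor for interleukin-1 (157 and 111 CPM, 0.49).

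The 27 polarizing receptors and factors reported here were 14 higher and 13 lower, with a median of 0.02. Csf3r, the receptor for G-CSF and also a neutrophil marker, was more than 2-fold higher in RP-6306, with 30 UMIs against 14 in vehicle (1.09). Of the other neutrophil markers, Lcn2 had 28 RP-6306 and 16 vehicle UMIs, Mmp9 749 and 912, Retnlg 1 and 0, and Ltf 0 and 2. Cxcr2, Ly6g and Camp were at 0. S100a8 (33 and 22) and S100a9 (4 and 1) are capped by the gate, so their counts do not measure neutrophil content. The part of neutrophils in the Csf3r value was not tested. Irf7, a factor of the interferon response (79.8 and 54.9 CPM, 0.53), and Jak2, a kinase of cytokine receptors (22.4 and 32.3 CPM, -0.51), were the next most different. Cebpb, a transcription factor (1363 and 1222 CPM), Cd44, a receptor for hyaluronan and osteopontin (473 and 467 CPM), and Nr4a1, a nuclear receptor (448 and 520 CPM), were the most abundant. Of the 16 paralogs of the members, only Arg2 (11.5 and 13.4 CPM, -0.21) and Il1a (42.5 and 36.0 CPM, 0.23) were measured.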

How the data were processed

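Each library's deposited files are a matrix, its barcodes and its features. The matrix holds raw UMI counts, not normalized, as deposited by the authors and per the file headers, which name Cell Ranger 7.1.0. Per the submitters' processing notes the version was Cell Ranger 2.1.1, with the build mm10, and which applies is not known. Other filters before deposit are not given in the sources used here. No column of another sample was used.

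Barcodes with at least 500 genes and at most 15% mitochondrial UMIs were kept, which removed 204 RP-6306 and 146 vehicle barcodes, and the gate was applied as described. Doublets were limited by the keratin bound; Scrublet's top 8% was removed as an alternative (13 RP-6306 and 18 vehicle gated cells). Counts were summed over gated cells and scaled to CPM here; log2 ratios used log2(CPM + 1) and so are too small for low genes. Intervals were exact Poisson, binomial (Clopper-Pearson) and conditional, all 95%; that of a difference of shares combined both binomial intervals. UMIs cluster in cells, so intervals are too narrow for a difference between cells. A count of 0 allows up to 3 counts.

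The members, ranges and lists were chosen with earlier results of these data known. All 10 members are named; of each list the 3 most abundant and the 3 most different genes with at least 20 UMIs; and for each member with at least 50 UMIs in each library the 3 genes with the highest r. The scripts were checked on simulated data. Gene names are those of the files, with coordinates from GENCODE M21 (GRCm38): Il1b on chromosome 2 (129364570 to 129371139), Arg1 on 10 (24915221 to 24927484), Mrc1 on 2 (14229392 to 14332057), Chil3 on 3 (106147554 to 106167564), Spp1 on 5 (104435118 to 104441050) and Nos2 on 11 (78920787 to 78960254), all protein-coding. Tnf lies on 17 (35199381 to 35202007), Il10 on 1 (131019845 to 131024974), Acod1 on 14 (103046977 to 103056573) and Saa3 on 7 (46711998 to 46715700). RefSeq promoters (GRCm38.p6) matched 7 of 10 by symbol. Python 3.11.15, numpy 2.4.6, scipy 1.17.1, pandas 2.3.3, scanpy 1.11.5, matplotlib 3.10.9, R 4.3.3 and edgeR 4.0.16 (TMM factors only) were used.

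Alternatives changed the scaling, pseudocount, gate bounds, barcode filter, doublet removal, ranges kept, top cell, feature minimum and thinning depth. Further alternatives, for the ranges and a bound of 0.5, were added after the data were seen. Some genes of the lists are not reported here; the range of Ly6c2 or Plac8, the marker sums and the list counts were computed without them, a choice also made after the data were seen.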

Additional observations from a re-analysis of the deposited data

Results flagged for a closer look

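Il1b and Spp1 each differed between the libraries in opposite directions in 2 ranges of the same gate. The log2 ratio of Il1b was 0.37 in C1q-high cells and -0.44 in cells with Ly6c2 or Plac8. The log2 ratio of Spp1 was -0.36 in C1q-high cells and 0.97 in cells with Ly6c2 or Plac8. With 1 library per arm the difference between the ranges was not tested.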

How the results depend on the processing

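Of 110 values (10 members under 11 settings), 104 stayed within the counting interval and 6 moved. Of the 104, 5 changed sign, all of genes whose interval includes 1: Nos2 was -0.53 with the mean of per-cell CPM, -1.04 with keratins of at most 1 and -0.16 without its top cell, and Acod1 was 0.02 and 0.72 under the first and second of these. The number of members past 2-fold, 0 as reported, was 1 in 4 settings: Saa3 with the mean of per-cell CPM (log2 ratio 1.47), with Lyz2 of at least 5 and without the dendritic and nonclassical ranges (2.14), and Nos2 with keratins of at most 1. It was 2 at a log2 ratio of 0.5. With the mean of per-cell CPM, Arg1 was at -0.72 and Il1b at 0.05. Features at least 2-fold higher numbered 84 as reported, 783 with a minimum of 1 UMI and 9 with 100; those lower numbered 92, 905 and 6. Pairs less often together numbered 5, against 3 in cells thinned to 500 UMIs and 8 without thinning; pairs more often together numbered 4, against 11 without thinning. At 500 UMIs the vehicle ratio of Mrc1 and Il1b reversed to 1.05, that of Mrc1 and Chil3 was 0.193, and the Arg1 detection difference was -2.92 points. In the C1q-high range Arg1 was at -0.92 with the mean of per-cell CPM and Spp1 at -0.23 without its top cell; Spp1 in the Ly6c2 or Plac8 range was 1.41 with C1q of at least 3. The median of the paralog list was -0.00182 with median-of-ratios size factors, and that of the polarizing receptors and factors -0.01 with the mean of per-cell CPM. The cause was not tested. No paired analysis was possible because each arm has 1 library and the results come from no test; for the same reason no replicate could be left out. Depth limits Tnf, Il10, Acod1 and Nos2, whose ratios have intervals that include 1.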

Other observations

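MHC class II genes, which present antigen to T cells, divided the members differently from the ranges above. The gate held 211 RP-6306 and 192 vehicle cells with at least 10 UMIs of H2-Aa, H2-Ab1, H2-Eb1 and Cd74 together, and 177 and 186 with fewer. Arg1 was lower in RP-6306 on both sides, at 273 against 387 CPM in the class II-high cells (ratio 0.704, 0.602 to 0.823) and 474 against 648 CPM in the class II-low cells (0.731, 0.637 to 0.839). Chil3 was not: it stood at 103 against 133 CPM in class II-high cells (0.774, 0.594 to 1.01) and at 646 against 418 CPM in class II-low cells (1.54, 1.34 to 1.78). Il10 had 41 UMIs in 13 RP-6306 and 20 UMIs in 8 vehicle class II-high cells (ratio 2.06, 1.18 to 3.70). The top cells held 10 of the RP-6306 and 7 of the vehicle UMIs. In class II-low cells Il10 had 6 UMIs in 5 RP-6306 and 16 UMIs in 11 vehicle cells, with a ratio interval that included 1 (0.434, 0.139 to 1.17).

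Cells with a UMI of the proliferation genes Top2a or Mki67 numbered 88 in RP-6306 and 82 in vehicle. Arg1 was lower in RP-6306 with these genes, at 261 against 334 CPM (0.783, 0.632 to 0.969), and without them, at 407 against 590 CPM (0.690, 0.613 to 0.776). Mrc1 was at 625 against 426 CPM in cells with them (ratio 1.47) and at 322 against 367 CPM in cells without (0.876, 0.762 to 1.01). Nos2, carried by only 3 RP-6306 and 6 vehicle gated cells, had 0 UMIs in cells with Top2a or Mki67 in both libraries. The upper limits there, 6.10 CPM in RP-6306 and 6.00 CPM in vehicle, lay above its levels over the whole gate (4.59 and 4.30 CPM). A difference from the other cells can therefore not be read from these zeros.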
